A study of Mus musculus with 27 samples.

Results

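The 49 genes described here encode the degradative enzymes of the lysosome and the pump that acidifies it. They were taken by symbol from the table of 41388 Ensembl identifiers: each listed symbol, from Ctsa to Atp6ap2, matched 1 row. They comprise 12 cathepsins and other proteases, 1 protease inhibitor, 6 lysosomal membrane proteins, 6 proteins of lipid and sphingolipid breakdown, 7 enzymes that cut sugar or sulfate groups, 3 transcription factors and 14 subunits of the vacuolar proton pump (V-ATPase). All 49 passed the filter on low counts, and Ctse, with 31 to 235 counts in a library, was the least abundant.

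RNA was sequenced from macrophages sorted from the dura mater of B6 mice of the genotype Rag1 ko, which lack the lymphocytes whose receptors need Rag1 (T and B cells), at 16 to 19 weeks of age. Each of the 7 groups carries the Rag1 deletion. One group of 6 libraries (4 female, 2 male) came from mice at steady state without T cells (no T). The other groups were studied 6.5 weeks after reconstitution with T cells: total B6 T cells (total T, 5 libraries, 4 female and 1 male), IL6Ra ko/IL21R ko T cells (7 libraries, 3 female and 4 male), IL22 ko T cells (3 libraries, 2 female and 1 male), and Tbet ko, IFNg ko or IL-17AF ko T cells (2 female libraries each). The knockouts were in the transferred T cells, and the macrophages were those of the Rag1 ko hosts. The sources used here do not give the markers of the sort. Nothing in the labels ties each library to an animal of its own, and the p-values therefore measure only the spread between libraries, which may be technical.

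Lysosomes are acidic organelles in which macrophages break down what they have taken up. The V-ATPase, built of a cytosolic V1 sector that hydrolyses ATP and a membrane V0 sector that conducts protons, keeps the lumen acidic. In that lumen cathepsins cut proteins, glycosidases trim sugar chains, and lipid hydrolases with their activator proteins take apart sphingolipids and cholesterol esters. Cathepsin S also trims the invariant chain of MHC class II molecules in cells that present antigen. Many lysosomal genes carry the sequence CACGTG near their start, the core of an element bound by the transcription factors TFEB, TFE3 and MITF.

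Promoter windows of 300 bases (250 before to 50 after the RefSeq start, GRCm38.p6) were matched by symbol for 40 of the 49 genes, in 50 windows. The letters CACGTG, which read the same on both strands, were in 11 of these 50 windows (22%), against 7.15% of all 32851 windows. The longer TCACGTGA, which contains CACGTG, was in 5 of 50 (10%), against 0.974% of all windows. The spaced GAAA repeat, which is GAAA, any 2 bases and GAAA again and forms part of the element bound by interferon regulatory factors, was searched on both strands and was in 3 of 50 (6%), against 3.44% of all windows: those of Ctss, Lamp1 and Atp6v1d. The spaced TTCNNNGAA of STAT proteins was in 1 (2%), that of Ctsc, against 8.3%. These are letter matches, not measured binding. The 11 genes with CACGTG were Ctsa, Ctsd, Ctsl, Lgmn, Lamp1, Glb1, Gla, Gaa, Atp6v0b, Atp6v0d1 and Atp6v1a. Stretches of 100 bases are shown 5′ to 3′ for 5 genes, those of a longer list whose stretch lay outside annotated exons. Of these, 3 carry CACGTG, and the windows of the cathepsins S and Z lack it. Capitals mark CACGTG or, in Ctss, the spaced GAAA repeat.
Lamp1 (chr8:13159061-13159160, plus strand): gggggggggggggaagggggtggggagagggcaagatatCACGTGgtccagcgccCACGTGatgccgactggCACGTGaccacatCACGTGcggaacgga
Gaa (chr11:119267773-119267872, plus strand): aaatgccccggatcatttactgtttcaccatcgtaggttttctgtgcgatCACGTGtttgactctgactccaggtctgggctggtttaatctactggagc
Atp6v1a (chr16:44139340-44139439, minus strand): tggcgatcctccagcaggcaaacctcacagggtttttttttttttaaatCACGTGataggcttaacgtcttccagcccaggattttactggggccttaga
Ctss (chr3:95526686-95526785, plus strand): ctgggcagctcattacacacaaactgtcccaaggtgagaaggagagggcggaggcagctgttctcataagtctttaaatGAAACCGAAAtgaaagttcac
Ctsz (chr2:174439040-174439139, minus strand): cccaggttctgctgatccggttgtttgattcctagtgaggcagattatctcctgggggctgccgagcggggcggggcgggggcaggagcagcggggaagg
The Lamp1, Ctss and Ctsz stretches are the 100 bases before the RefSeq start. Those of Gaa (bases -190 to -91 from the start) and Atp6v1a (-180 to -81) lie further upstream. The Lamp1 stretch holds 4 copies of CACGTG, those of Gaa and Atp6v1a hold 1 each, and the Ctsz stretch holds neither sequence. The genes with the motif did not move as 1 group in the results below: with total T cells Gla rose, Gaa and Glb1 fell, and Lamp1, Ctsa, Ctsd and Lgmn were not called.

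The libraries held 6902602 to 19966749 counts. Clustered by the levels of ribosomal protein transcripts, they fell into 3 sets. The share of counts in such transcripts was 2.69% to 3.29% (set A, 7 libraries), 1.11% to 1.55% (set B, 13) and 0.721% to 0.857% (set C, 7). The no T group has 4 libraries in set A and 2 in set B, total T has 3 and 2, and IL22 ko has all 3 in set B. IL6Ra/IL21R ko has 6 libraries in set B and its library M4 in set C. The Tbet ko, IFNg ko and IL-17AF ko libraries are all in set C, with no control library, so their differences from the controls cannot be told apart from the set. The defining macrophage genes Csf1r, Adgre1, Fcgr1, Mertk, C1qa, C1qb, C1qc, Lyz2, Aif1 and Tyrobp were present in every group, with a summed level of 23940 to 39270 CPM (counts scaled to TMM-adjusted library totals). Melanocyte markers, which include targets of MITF, summed to 0 to 3.11 CPM.

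Compared per kb of exon, the most abundant of the 49 transcripts were Psap, Cst3 and Ctss, at means over all libraries of 2868, 2730 and 2389 CPM per kb. Psap encodes prosaposin, the precursor of the activators of sphingolipid breakdown, Cst3 encodes cystatin C, a secreted inhibitor of cysteine cathepsins, and Ctss encodes cathepsin S. Ctsb, Ctsd and Lgmn, which encode cathepsins B and D and legumain, followed at 1096, 883 and 838 CPM per kb. In the other roles the most abundant transcripts were Lamp1 (553 CPM per kb), Hexa (550.5), Atp6ap1 (132), Atp6v0b (105), Atp6v1f (86.4) and Tfe3 (17.9). Ctse was the lowest at 2.33 CPM per kb.

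**Figure D1:**
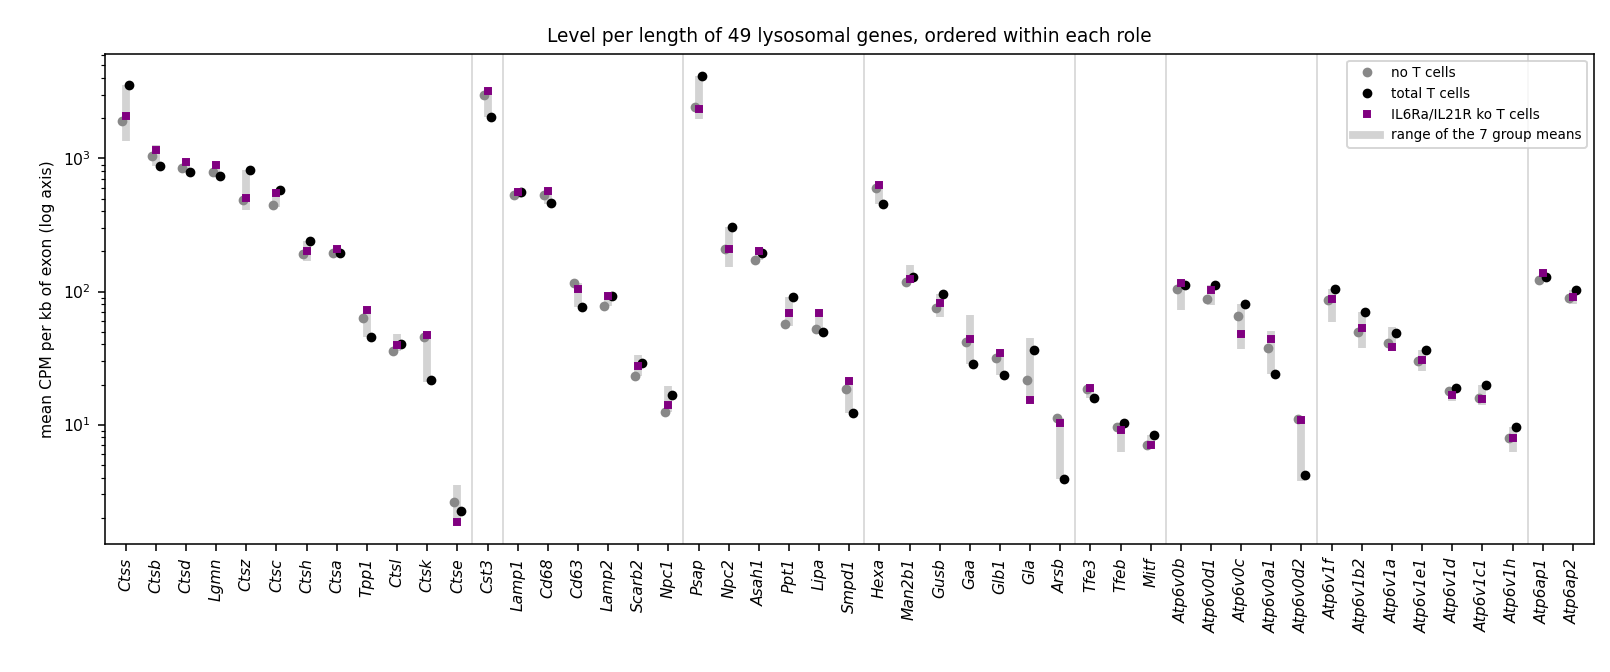
Mean level of each gene in CPM per kb of exon on a log axis, ordered within each role; grey bars span the 7 group means and points show 3 groups. Psap, Cst3 and Ctss lead, and the V-ATPase subunits lie between about 132 and 8.01 CPM per kb.

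With total T cells, the macrophages of reconstituted mice differed from those without T cells in 26 of the 49 genes (53.1%) by edgeR's quasi-likelihood test at a Benjamini-Hochberg adjusted p under 0.05, against 21.0% of the 12661 genes tested. Of these, 16 rose and 10 fell, where 11.7% and 9.39% of all genes did. Over all 49 genes the median log2 fold change was 0.14, against -0.02 over all genes tested. Genes of most roles moved both ways. Cathepsins S, Z, C and H, the cholesterol carriers Npc1 and Npc2, prosaposin, Ppt1, Gla, Gusb, Lamp2, Scarb2 and 4 pump subunits rose. Tpp1, Smpd1, Cd63, Hexa, Glb1, Gaa, Arsb, cystatin C and the V0 subunits Atp6v0a1 and Atp6v0d2 fell. All 26 had the same sign in set A alone and in set B alone. The 26 were called from these same libraries, so the shared sign is no independent support.

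The groups did not overlap in CPM for 11 genes that were higher and 5 that were lower with total T cells, against 10.6% of all genes in either direction.

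**Figure D2:**
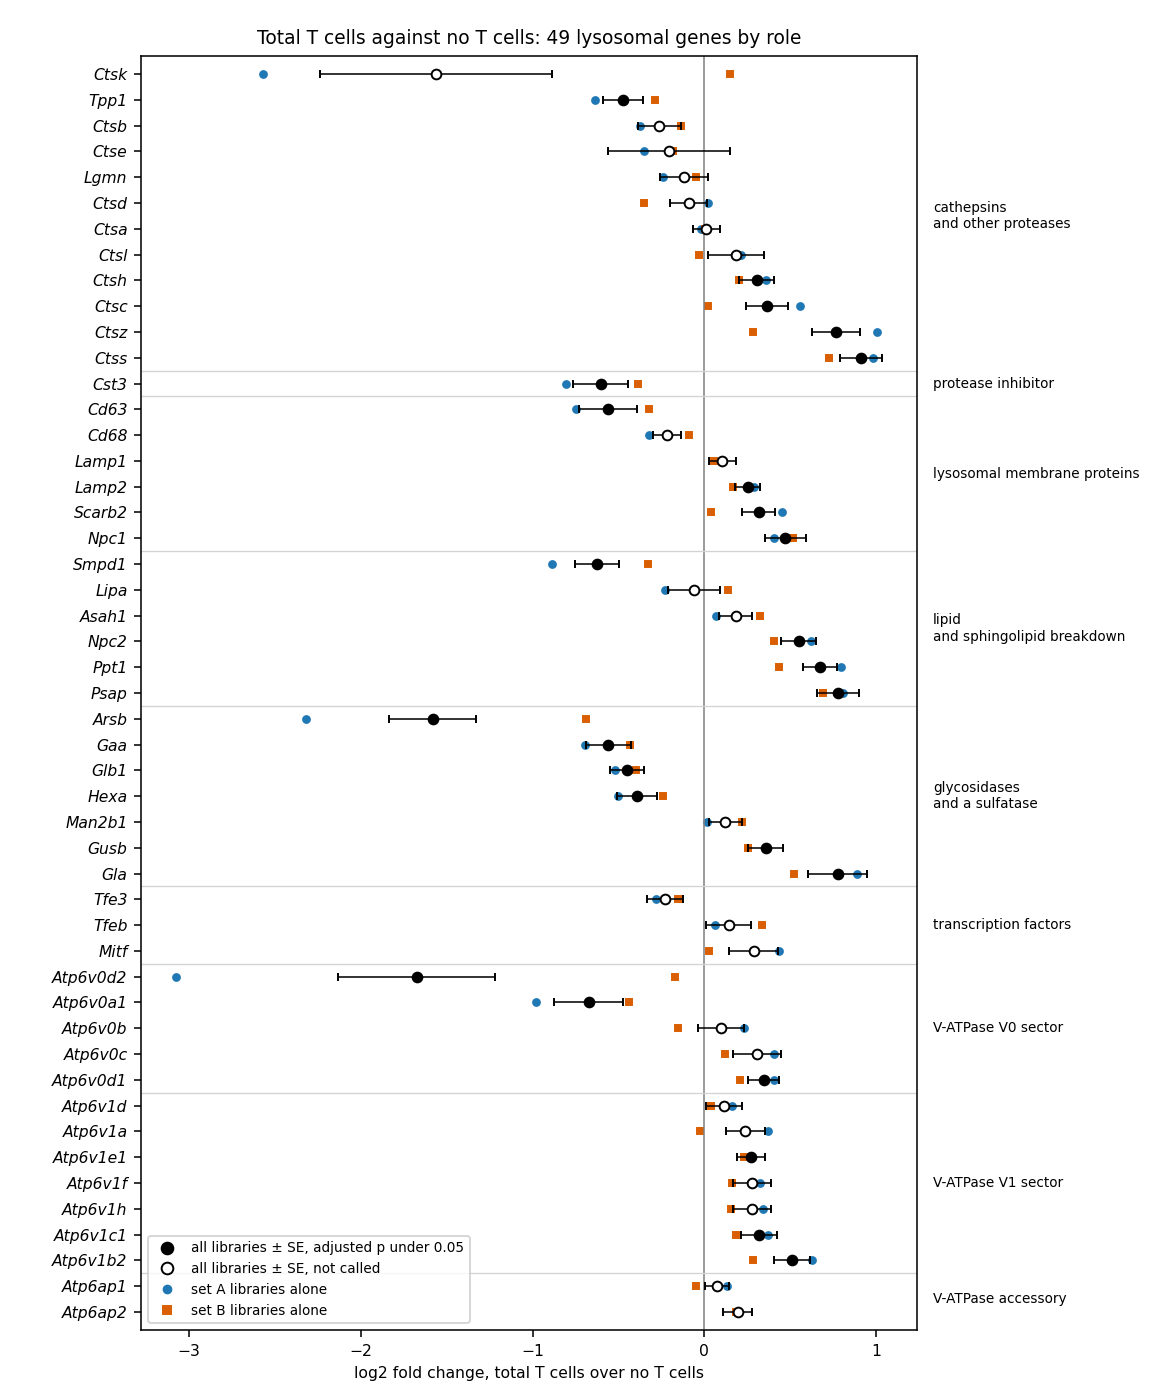
Log2 fold change of total T over no T for each of the 49 genes, by role, with its SE over all libraries (black, filled where called) and the value in set A (blue) and set B (orange) libraries alone. Ctss, Psap and Gla lie to the right, Atp6v0d2, Arsb and the uncalled Ctsk to the left, and for those 3 the set A and set B values lie furthest apart.

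Among the 12 proteases, 4 rose and 1 fell, and their median log2 fold change was -0.04. Ctss lay between 2430 and 2984 CPM (median 2577) in the 6 no T libraries and at 5448, 5157, 4471, 3978 and 5294 CPM in total T libraries F1, F2, F3, F4 and M1. Every total T library was above every no T library, and the log2 fold change was 0.91 ± 0.12 (SE, adjusted p = 3.79e-05), with 0.73 in set B alone. Ctsz, which encodes the carboxypeptidase cathepsin Z, lay between 587 and 776 CPM (median 717) without T cells and at 1350, 1177, 805, 1029 and 1544 CPM with them. The groups did not overlap and the log2 fold change was 0.77 ± 0.14 (adjusted p = 0.000428), but set A alone gave 1.01 and set B alone 0.28. Ctsc, whose product activates serine proteases of granules, rose by a log2 fold change of 0.37 ± 0.12 (adjusted p = 0.0361) and Ctsh, an aminopeptidase, by 0.30 ± 0.10 (adjusted p = 0.0317). The Ctsc difference was 0.02 in set B alone.

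Tpp1, a tripeptidyl peptidase, was the 1 protease that fell, from a range of 291 to 353 CPM (median 327) to 174, 251, 302, 266 and 192 CPM in total T libraries F1, F2, F3, F4 and M1. The groups overlapped in library F3, and the log2 fold change was -0.47 ± 0.12 (adjusted p = 0.00553). Ctsb had a log2 fold change of -0.26 ± 0.12 (adjusted p = 0.139), and Ctsd (-0.09 ± 0.11), Ctsa (0.01 ± 0.08), Ctsl (0.19 ± 0.16), Lgmn (-0.12 ± 0.14) and Ctse (-0.21 ± 0.35) were not called. Ctsk, the cathepsin known from osteoclasts, had the largest difference of any uncalled member, -1.56 ± 0.67 (adjusted p = 0.104). Its level ran from 19.9 to 143 CPM without T cells and was 42.3, 4.28, 78.7, 32.9 and 4.13 CPM in total T libraries F1, F2, F3, F4 and M1, so libraries of both groups spread over more than the difference. Cst3, the inhibitor, fell by 0.60 ± 0.16 (adjusted p = 0.00929), from 3476 to 4354 CPM (median 3675) to 1843, 2737, 3259, 3294 and 1791 CPM, without overlap.

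Of the 6 genes of lipid and sphingolipid breakdown, 3 rose and 1 fell. Psap lay between 5966 and 7396 CPM (median 6658) without T cells and at 10020, 13060, 10730, 10740 and 12530 CPM with total T cells (log2 fold change 0.78 ± 0.12, adjusted p = 0.000118, 0.69 in set B alone). Npc2, the soluble lysosomal carrier of cholesterol, lay between 1021 and 1218 CPM (median 1155) and at 1730, 1661, 1574, 1570 and 1801 CPM (0.55 ± 0.10, adjusted p = 0.000574). Ppt1, which removes palmitate from proteins, lay between 195 and 229 CPM (median 207) and at 396, 312, 269, 306 and 383 CPM (0.67 ± 0.10, adjusted p = 5.67e-05). In each of these 3 genes all total T libraries were above all no T libraries. Smpd1, the acid sphingomyelinase, fell from 57.9 to 70.0 CPM (median 60.9) to 30.0, 38.5, 58.7, 45.5 and 31.5 CPM (-0.63 ± 0.13, adjusted p = 0.00131), with set B library F3 inside the range of the controls. Asah1, acid ceramidase (0.18 ± 0.10), and Lipa, acid lipase (-0.06 ± 0.15), were not called.

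Among the 7 sugar and sulfate enzymes, 4 fell and 2 rose, with a median log2 fold change of -0.39. Arsb, the sulfatase that acts on dermatan sulfate, lay between 58.3 and 80.7 CPM (median 67.0) without T cells and at 13.6, 13.4, 35.4, 39.6 and 15.8 CPM with total T cells (-1.58 ± 0.25, adjusted p = 0.000138). The 3 set A libraries of total T were below the 2 of set B: set A alone gave -2.32 and set B alone -0.69. Gaa, the glucosidase of lysosomal glycogen, lay between 189 and 228 CPM (median 198) and at 82.1, 143, 154, 165 and 136 CPM (-0.56 ± 0.13, adjusted p = 0.00354). Glb1, acid beta-galactosidase, lay between 87.6 and 107 CPM (median 93.6) and at 57.8, 79.5, 79.3, 80.5 and 58.7 CPM (-0.45 ± 0.10, adjusted p = 0.00195). These 3 genes did not overlap between the groups, whereas Hexa, the alpha subunit of beta-hexosaminidase, did: 1063 to 1306 CPM (median 1207) against 661, 980, 1113, 998 and 798 CPM (-0.39 ± 0.12, adjusted p = 0.0185).

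Gla, alpha-galactosidase A, went the other way, from 57.9 to 83.3 CPM (median 71.2) to 125, 98.5, 115, 119 and 138 CPM with total T cells, without overlap (0.78 ± 0.17, adjusted p = 0.00216). Gusb, beta-glucuronidase, rose by 0.36 ± 0.10 (adjusted p = 0.0158), and Man2b1, an alpha-mannosidase, was not called (0.12 ± 0.09).

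Among the 6 membrane proteins, 3 rose and 1 fell. Npc1, the membrane partner of Npc2 in cholesterol export, lay between 115 and 185 CPM (median 135) and at 162, 192, 210, 170 and 211 CPM (0.47 ± 0.12, adjusted p = 0.00646), and no T library M2 was inside the total T range. Lamp2, which takes part in chaperone-mediated autophagy, rose by 0.25 ± 0.07 (adjusted p = 0.0138) and Scarb2, the receptor that carries glucocerebrosidase to the lysosome, by 0.32 ± 0.10 (adjusted p = 0.0195). The tetraspanin Cd63 fell by 0.56 ± 0.17 on the log2 scale (adjusted p = 0.0190), and its reads may be shared with the annotated pseudogene Cd63-ps. Lamp1, the most abundant of the 6 per kb, lay between 1341 and 1486 CPM (median 1421) and at 1401, 1600, 1479, 1521 and 1540 CPM (0.11 ± 0.08, adjusted p = 0.38), and Cd68 had -0.21 ± 0.08 (adjusted p = 0.0615). None of the 3 transcription factors passed the test: Tfeb had a log2 fold change of 0.14 ± 0.13, Tfe3 -0.23 ± 0.10 and Mitf 0.29 ± 0.14, with adjusted p-values of 0.483, 0.117 and 0.164.

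The subunits of the proton pump did not move as a block. All 7 V1 subunits had a positive log2 fold change, from 0.11 (Atp6v1d) to 0.51 (Atp6v1b2), and 3 were called. Atp6v1b2, a subunit of the ATP-hydrolysing head, lay between 231 and 293 CPM (median 266) and at 498, 331, 338, 314 and 389 CPM with total T cells, without overlap (0.51 ± 0.10, adjusted p = 0.00117). Atp6v1c1 rose by 0.32 ± 0.10 (adjusted p = 0.0316) and Atp6v1e1 by 0.27 ± 0.08 (adjusted p = 0.0194). Atp6v1f lay between 78.6 and 98.1 CPM (median 94.8) and at 123, 114, 100.3, 105 and 117 CPM, without overlap, yet was not called (0.28 ± 0.11, adjusted p = 0.0745). Atp6v1a (0.24 ± 0.11) and Atp6v1h (0.28 ± 0.11) were not called either. With the library set as a term in the model, Atp6v1f and Atp6v1h passed (adjusted p = 0.0232 and 0.0131), as did Atp6v0c and Cd68 (adjusted p = 0.00283 and 0.0266).

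In the V0 sector 1 of 5 subunits rose and 2 fell. Atp6v0d1, the common form of the d subunit, rose by 0.35 ± 0.09 (adjusted p = 0.00779). Atp6v0d2, its form in osteoclasts and some macrophages, fell from 16.5 to 43.8 CPM (median 29.4) to 8.21, 5.26, 25.7, 16.7 and 1.40 CPM (-1.68 ± 0.46, adjusted p = 0.0109). This fall was -3.07 in set A alone and -0.17 in set B alone, where both total T libraries lay within the range of the controls. Atp6v0a1, an a subunit, fell by 0.67 ± 0.20 (adjusted p = 0.0191). Atp6v0c, the proteolipid of the proton-conducting ring, followed the library sets within each group: the no T libraries had 238 to 247 CPM in set A and 177 and 182 CPM in set B, and the total T libraries 290 to 338 CPM in set A and 191 and 201 CPM in set B (0.31 ± 0.14, adjusted p = 0.125). Its reads may be shared with the annotated pseudogenes Atp6v0c-ps1 and Atp6v0c-ps2. Atp6v0b (0.10 ± 0.13) and the accessory subunits Atp6ap1 (0.07 ± 0.07) and Atp6ap2 (0.19 ± 0.08) were not called.

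**Figure D3:**
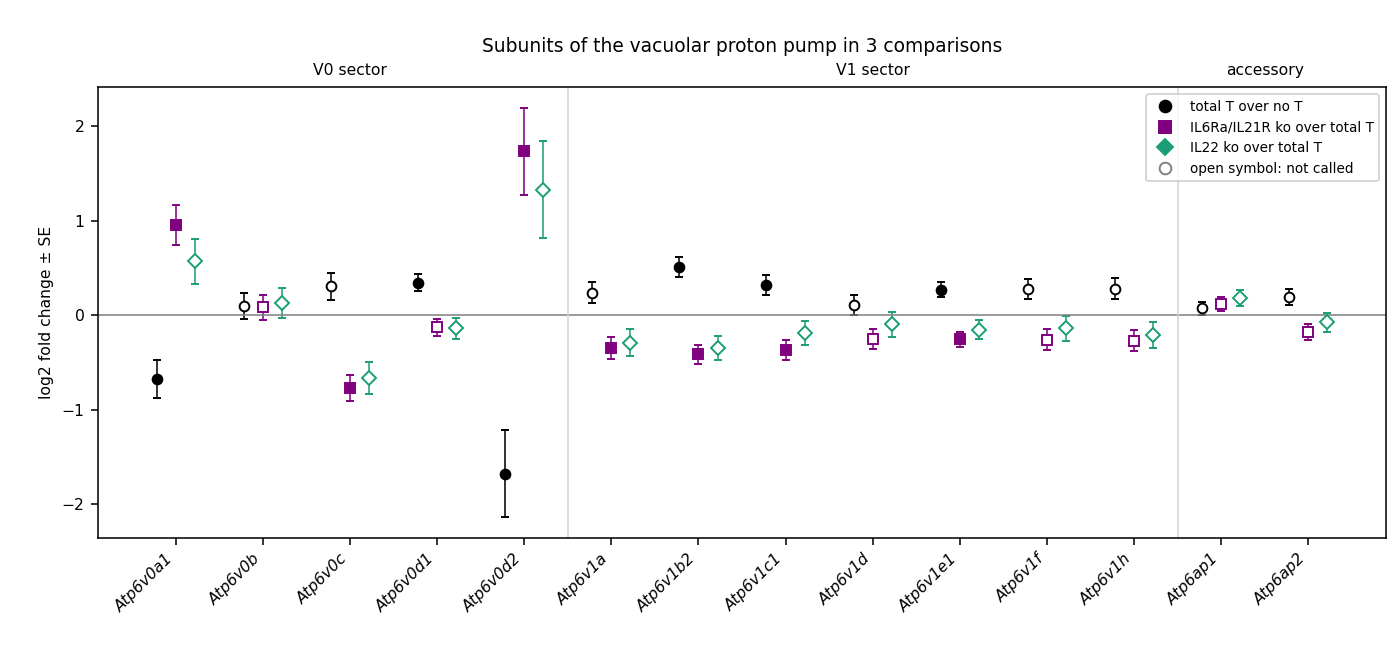
Log2 fold change ± SE of 14 V-ATPase genes in 3 comparisons that share the total T libraries, with filled symbols where called. The 7 V1 subunits lie above 0 for total T over no T and below 0 for both knockout comparisons, and Atp6v0a1 and Atp6v0d2 lie on the opposite sides.

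Of the 26 genes called, 25 had a smaller absolute log2 fold change in set B than in set A, with medians of 0.305 and 0.63. The 26 were called from these same libraries, more of them in set A than in set B, which favours genes with large set A changes. The same count was not made for other genes. By edgeR, set B alone (2 against 2 libraries) called 0 of the 49 genes (0.743% of all genes), with 12 at an unadjusted p under 0.05, and set A alone called 17 (16.8% of all genes). In a test of the difference between the sets, added after these values were seen, edgeR called 0 of 12661 genes and 6 of the 49 had an unadjusted p under 0.05, with Arsb first (difference 1.62 ± 0.22, adjusted p = 0.0918). Markers moved with the comparison: all 9 border macrophage markers fell (summed level 9077 to 13470 CPM without and 2074 to 7495 CPM with total T cells) and all 9 monocyte-derived cell markers rose (717 to 1323 CPM against 1920 to 8950 CPM). Within total T, the set A libraries F1, F2 and M1 had the lowest border macrophage sums (2074, 4456 and 2389 CPM) and the highest monocyte-derived sums (8950, 3023 and 3856 CPM). The part of these cells in the lysosomal differences was not tested, and in bulk samples fewer cells of a type and less RNA per cell cannot be told apart. The osteoclast list summed to 491 to 784 CPM without and 316 to 524 CPM with total T cells. Fibroblast markers summed to 433 to 1474 CPM without and 256 to 409 CPM with total T cells. These groups did not overlap, and the part of fibroblasts was not tested. Neutrophil markers summed to 0.346 to 2480 CPM without and 12.3 to 297 CPM with total T cells. Their highest sums were in no T M1 (2480 CPM) and no T F1 (527 CPM), and the part of such cells was not tested. Without total T library F1 or M1, calls were lost for Ctsc, Ctsh, Cd63, Hexa, Atp6v0a1 and Atp6v1e1, and without M1 also for Scarb2 and Atp6v1c1. Calls also rested on other libraries: Ctsc on no T F1, F2, M1 and M2 and total T F3, Ctsh on no T F1 and M1, Scarb2 on total T F2, Atp6v1c1 on no T F1, M1 and M2 and total T F3, and Atp6v1e1 on no T F1. The highest adjusted p of these 8 genes in leave-one-out fits lay between 0.06 (Atp6v1e1) and 0.179 (Ctsc).

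With IL6Ra ko/IL21R ko T cells, which lack receptor chains for interleukins 6 and 21, macrophages differed from those of mice given total T cells in 25 of the 49 genes (51%), against 28.2% of all genes tested. In this comparison 13 genes were higher and 12 lower (13.1% and 15.1% of all genes), and 19 of the 25 were also called for total T against no T. The comparisons share the total T libraries, so their values are given side by side and do not support each other. Compared with no T cells directly, edgeR called 1 of the 49 genes (2.04%, against 1.15% of all genes), Lamp2 (0.27 ± 0.07, adjusted p = 0.0480), and 10 had an unadjusted p under 0.05. In CPM all 49 genes overlapped between these groups, where 0.45% of all genes did not. The Lamp2 call was lost in 11 of 13 leave-one-out fits, all but those without no T F3 or IL6Ra/IL21R ko M4, with an adjusted p of up to 0.147 and a log2 fold change of 0.25 to 0.29.

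**Figure D4:**
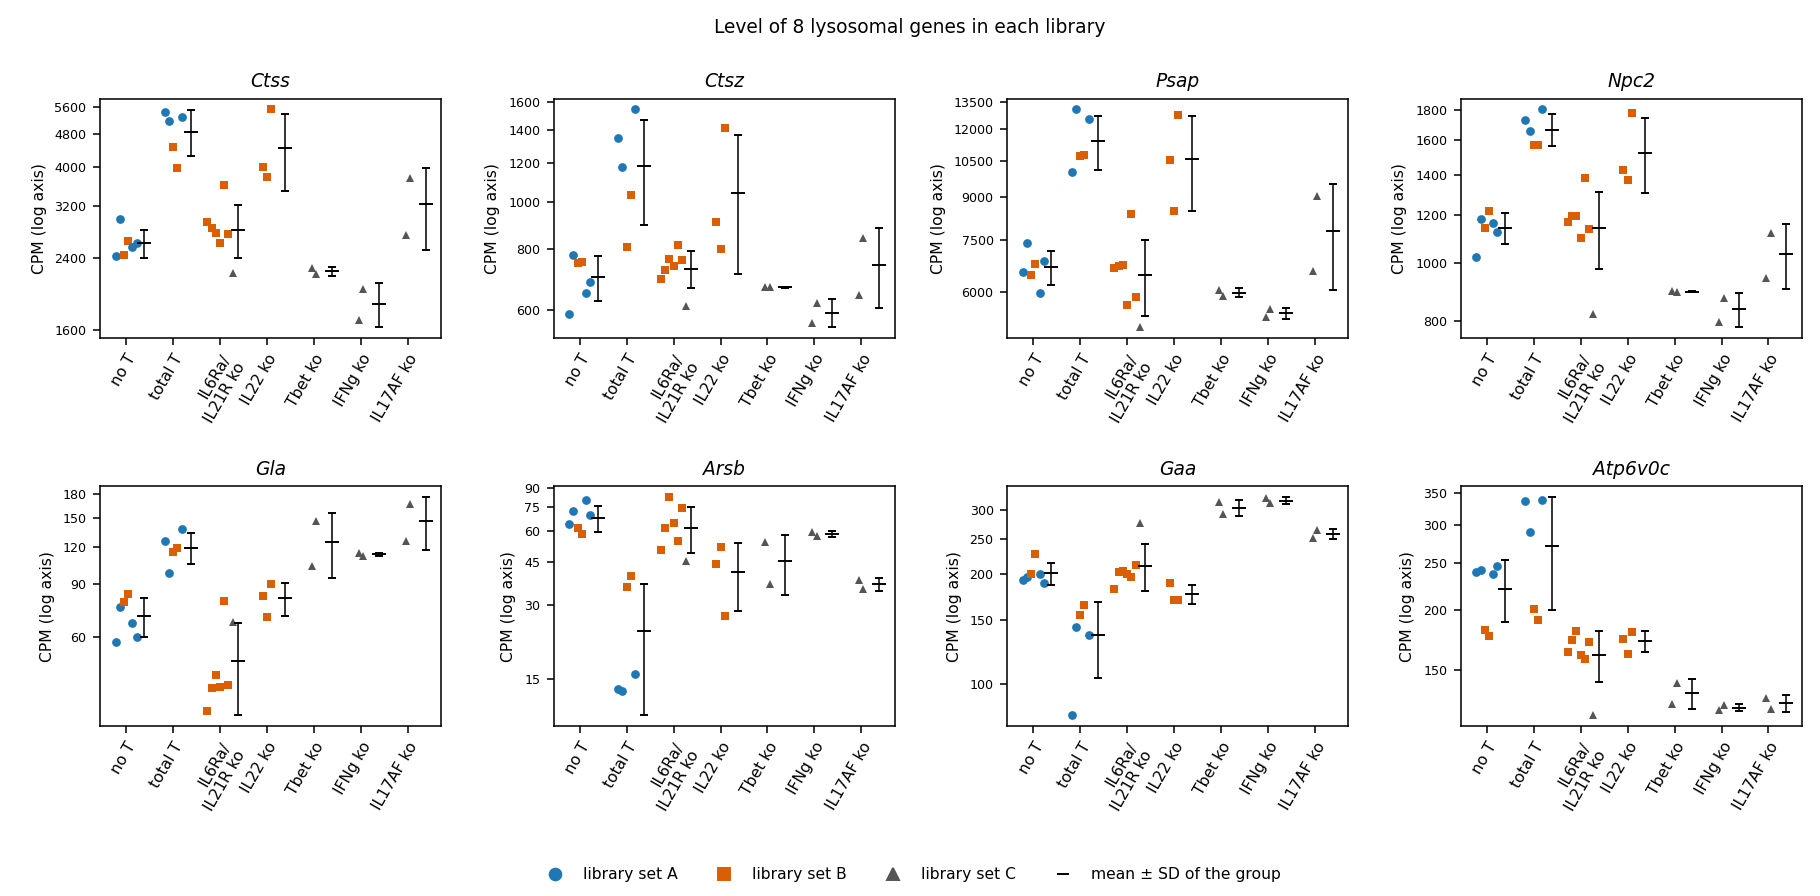
CPM per library (log axis) of 8 genes in the 7 groups, with colour and shape for the library set and bars for the mean ± SD of a group. Ctss, Psap and Npc2 are high in total T and IL22 ko, Gla is lowest in 5 of the 7 IL6Ra/IL21R ko libraries, Arsb is lowest in the set A libraries of total T, Gaa is highest in set C and Atp6v0c falls from set A to set C.

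Ctss lay between 2209 and 3611 CPM (median 2753) in the 7 IL6Ra/IL21R ko libraries, below all 5 total T libraries (log2 fold change -0.82 ± 0.12, adjusted p = 3.59e-05, and -0.63 with adjusted p = 0.0133 in set B alone). Psap lay between 5167 and 8354 CPM (median 6634), likewise below all total T libraries (-0.84 ± 0.12, adjusted p = 3.08e-05, and -0.74 in set B). Npc2 lay between 821 and 1383 CPM (median 1167), again without overlap (-0.56 ± 0.10, adjusted p = 0.000247). In each of these 3 genes the lowest of the 7 was library M4, the 1 in set C. Over the 49 genes, 6 were lower and 6 higher without overlap, against 10.8% of all genes in either direction. Ctsz (-0.75 ± 0.14), Ppt1 (-0.43 ± 0.10) and Npc1 (-0.35 ± 0.12) were also lower, with adjusted p-values of 0.000234, 0.00168 and 0.0313. Of the 16 genes that rose with total T cells, 10 were called lower here. The others, Ctsc, Ctsh, Gusb, Lamp2, Scarb2 and Atp6v0d1, were not called.

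Gla showed the largest decrease of the called genes, to 34.1 to 79.4 CPM (median 41.5) with IL6Ra/IL21R ko T cells, against 98.5 to 138 CPM with total T cells (-1.35 ± 0.17, adjusted p = 8.65e-06). In set B alone the difference was -1.52 (adjusted p = 0.00138). Its level was also below that of mice without T cells in 5 of 7 libraries, but that difference was not called (-0.58 ± 0.16, adjusted p = 0.102). M2, at 79.4 CPM, and M4, at 67.4 CPM, lay inside the no T range.

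Of the 10 genes that fell with total T cells, Cd63 was not called here (0.38 ± 0.17, adjusted p = 0.0986) and the others were called higher than with total T cells, whose libraries both comparisons share. Arsb lay between 45.2 and 82.5 CPM (median 61.9), above all total T libraries (1.49 ± 0.26, adjusted p = 0.000138, and 0.92 with adjusted p = 0.0303 in set B). Smpd1 lay between 66.2 and 74.5 CPM (median 71.1), also above all total T libraries (0.85 ± 0.13, adjusted p = 4.81e-05). Tpp1 lay between 312 and 436 CPM (median 374), above 302 CPM, the highest of total T (0.69 ± 0.12, adjusted p = 0.000141). Glb1 (0.60 ± 0.10), Gaa (0.62 ± 0.13) and Cd68 (0.31 ± 0.08) were likewise higher without overlap, with adjusted p-values of 9.51e-05, 0.00105 and 0.00546. Cst3 (0.75 ± 0.16), Hexa (0.47 ± 0.12), Lipa (0.46 ± 0.15) and Ctsb (0.40 ± 0.13) were higher with overlapping libraries. Tfe3 passed at an adjusted p of 0.0498 (0.27 ± 0.10), and this call was lost in 9 of 12 leave-one-out fits.

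All 7 V1 subunits had negative log2 fold changes in this comparison, and Atp6v1a (-0.35 ± 0.12), Atp6v1b2 (-0.41 ± 0.10), Atp6v1c1 (-0.37 ± 0.11) and Atp6v1e1 (-0.25 ± 0.08) were called. Their adjusted p-values were 0.0267, 0.00389, 0.0104 and 0.0209. In the V0 sector Atp6v0d2 was higher by 1.73 ± 0.46 (adjusted p = 0.00615) and Atp6v0a1 by 0.95 ± 0.21 (adjusted p = 0.00143). Atp6v0c had a log2 fold change of -0.77 ± 0.14 (adjusted p = 0.000185), which was -0.31 with the library set as a term (adjusted p = 0.0237) and -0.20 in set B alone (adjusted p = 0.285).

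With the library set as a term, 16 of the 49 genes were called (14.3% of all genes), and 15 of these were among the 25, the other being Atp6v1h. The 10 calls lost were Ctsb, Cd68, Lipa, Ppt1, Hexa, Gaa, Tfe3, Atp6v0a1, Atp6v1b2 and Atp6v1e1. In set B alone (6 against 2 libraries) all 25 kept their sign and 6 were called (6.59% of all genes): Ctss, Npc2, Psap, Gla, Arsb and Atp6v1a. The set B libraries were part of the fit that called the 25, so the shared sign is no independent support. Without total T library F1 or M1 the calls of Ctsb, Lipa, Tfe3, Atp6v1a and Atp6v1e1 were lost, and without M1 that of Npc1. Leaving out IL6Ra/IL21R ko F3 also ended the calls of Ctsb, Lipa, Npc1, Tfe3 and Atp6v1a. Other single libraries ended those of Npc1 (total T F2 or F3, IL6Ra/IL21R ko F2, M1 or M3), Atp6v1a (total T F3, IL6Ra/IL21R ko F1 or F2) and Tfe3 (total T F3 or F4, IL6Ra/IL21R ko F2, M2, M3 or M4). The adjusted p of these 6 genes reached 0.0578 (Atp6v1e1) to 0.199 (Tfe3). All 9 border macrophage markers were higher and all 9 monocyte-derived markers lower than with total T cells, and 7 of 8 fibroblast markers tested were higher. The fibroblast sum was 366 to 1155 CPM in the 6 set B libraries and 3588 CPM in M4, against 256 to 409 CPM in total T. The part of these markers in the lysosomal differences was not tested.

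For the 3 libraries from mice given IL22 ko T cells, edgeR called 0 of the 49 genes against total T (0.0869% of all genes called), 0 against no T and 0 against IL6Ra/IL21R ko (0.0079% of all genes called in each). At an unadjusted p under 0.05 these comparisons held 17, 15 and 8 of the 49 genes, and DESeq2 called 6, 2 and 4 (6.36%, 1.3% and 0.73% of all genes). Ctss was 4002, 3771 and 5513 CPM in IL22 ko libraries F1, F2 and M1, above every IL6Ra/IL21R ko and no T library (0.67 ± 0.14 against IL6Ra/IL21R ko, adjusted p = 0.0588, and 0.76 ± 0.14 against no T, adjusted p = 0.0648). Psap was 10530, 8486 and 12730 CPM, again above every library of those groups (0.72 ± 0.14 against IL6Ra/IL21R ko, adjusted p = 0.0588). M1, the male library, was the highest of the 3 for both genes. Within set B alone, edgeR called Ctss, Psap and Gla higher in IL22 ko than in IL6Ra/IL21R ko (adjusted p = 0.0158, 0.0166 and 0.0316, with 1.33% of all genes called). Ctss and Psap were higher and Smpd1 lower without overlap, against 4.24% of all genes.

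Against total T, Glb1 was 97.4, 99.7 and 95.1 CPM in the IL22 ko libraries, above every total T library (0.48 ± 0.12, adjusted p = 0.0573). Gla was 82.5, 69.8 and 90.0 CPM, below every total T library. In all, 6 of the 49 genes were higher and 3 lower than total T without overlap, against 10.2% of all genes in either direction. Ctsk was 17.7, 156 and 25.0 CPM in F1, F2 and M1, a spread within 1 group as wide as that between the groups. The lists of border macrophage and monocyte-derived markers had 0 of 9 called against total T, where 0.0869% of all genes were called. Border macrophage sums were 7426 to 9793 CPM in IL22 ko and overlapped with total T (2074 to 7495 CPM). Monocyte-derived sums were 1012 to 1655 CPM, below all total T libraries (1920 to 8950 CPM). Fibroblast sums were 543 to 719 CPM, above all total T libraries (256 to 409 CPM). The part of these markers in the lysosomal values was not tested.

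The Tbet ko, IFNg ko and IL-17AF ko groups differed from total T in 19, 25 and 14 of the 49 genes, against 30.0%, 36.8% and 25.1% of all genes tested. With the library set as a term, edgeR called 0 of the 49 in each (9, 9 and 7 at an unadjusted p under 0.05), against 0.0474%, 0.379% and 0.0237% of all genes, and that term rests on IL6Ra/IL21R ko library M4 for set C. DESeq2, run without the set term, called 19, 26 and 15 (32.6%, 38.8% and 27.5% of all genes). The column names of the 2 Tbet ko libraries carry the same number, and that of M4 carries several, so the former may be 1 source and the latter a pool, which the labels do not say. Ctss was 2263 and 2186 CPM in the Tbet ko libraries, 1693 and 2012 CPM with IFNg ko and 2719 and 3759 CPM with IL-17AF ko. The differences from total T were -1.11 ± 0.18, -1.38 ± 0.18 and -0.57 ± 0.18 (adjusted p = 0.00017, 1.69e-05 and 0.0203). With the set term they were -0.57, -0.84 and -0.03.

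Gaa was higher in the set C groups than in any other library of the study but M4, at 315 and 293 CPM (Tbet ko), 323 and 314 CPM (IFNg ko) and 252 and 264 CPM (IL-17AF ko), with 277 CPM in M4. Against total T it was higher by 1.17 ± 0.17, 1.24 ± 0.17 and 0.93 ± 0.17 (adjusted p = 5.93e-05, 2.15e-05 and 0.00078). Gla was 104 and 147 CPM, 114 and 112 CPM, and 126 and 167 CPM in the Tbet ko, IFNg ko and IL-17AF ko libraries, and was called in none of these comparisons with total T. The 14 genes called in the IL-17AF ko comparison were called in the same direction in both others. Ctss, Ctsz, Npc2, Psap, Ppt1, Atp6v0c, Atp6v0d1, Atp6v1b2, Atp6v1f and Atp6v1h were lower, and Ctsb, Tpp1, Smpd1 and Gaa were higher. These comparisons share the total T libraries, and their knockout libraries are all in set C, so they do not support each other. Psap, at 6063 and 5903 CPM with Tbet ko, 5386 and 5570 CPM with IFNg ko and 6569 and 9013 CPM with IL-17AF ko, had log2 fold changes of -0.92 ± 0.18, -1.05 ± 0.18 and -0.54 ± 0.18 against total T. IL-17AF ko library F2 was the highest of the 6 for both Ctss and Psap. Leaving out 1 library moved the counts: 7 and 12 of the 49 genes were past the threshold without Tbet ko F1 or F2, 13 without IFNg ko F1, and 4 and 8 without IL-17AF ko F1 or F2. Set against the mean of the Tbet ko and IFNg ko groups, all in set C, the IL-17AF ko group had 0 of 49 genes called by edgeR (0.0079% of all genes) and 0 by DESeq2 (0.0318%), and 3 had an unadjusted p under 0.05. Ctss had the smallest p (0.67 ± 0.17, adjusted p = 0.545). Fibroblast markers summed to 2230 to 3634 CPM in these 6 libraries, and 7 of 8 tested were higher than with total T cells in each group. Border macrophage markers summed to 11860 to 17210 CPM and monocyte-derived markers to 359 to 602 CPM, neither overlapping with total T (2074 to 7495 and 1920 to 8950 CPM). The part of these markers in the lysosomal differences was not tested.

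**Figure D5:**
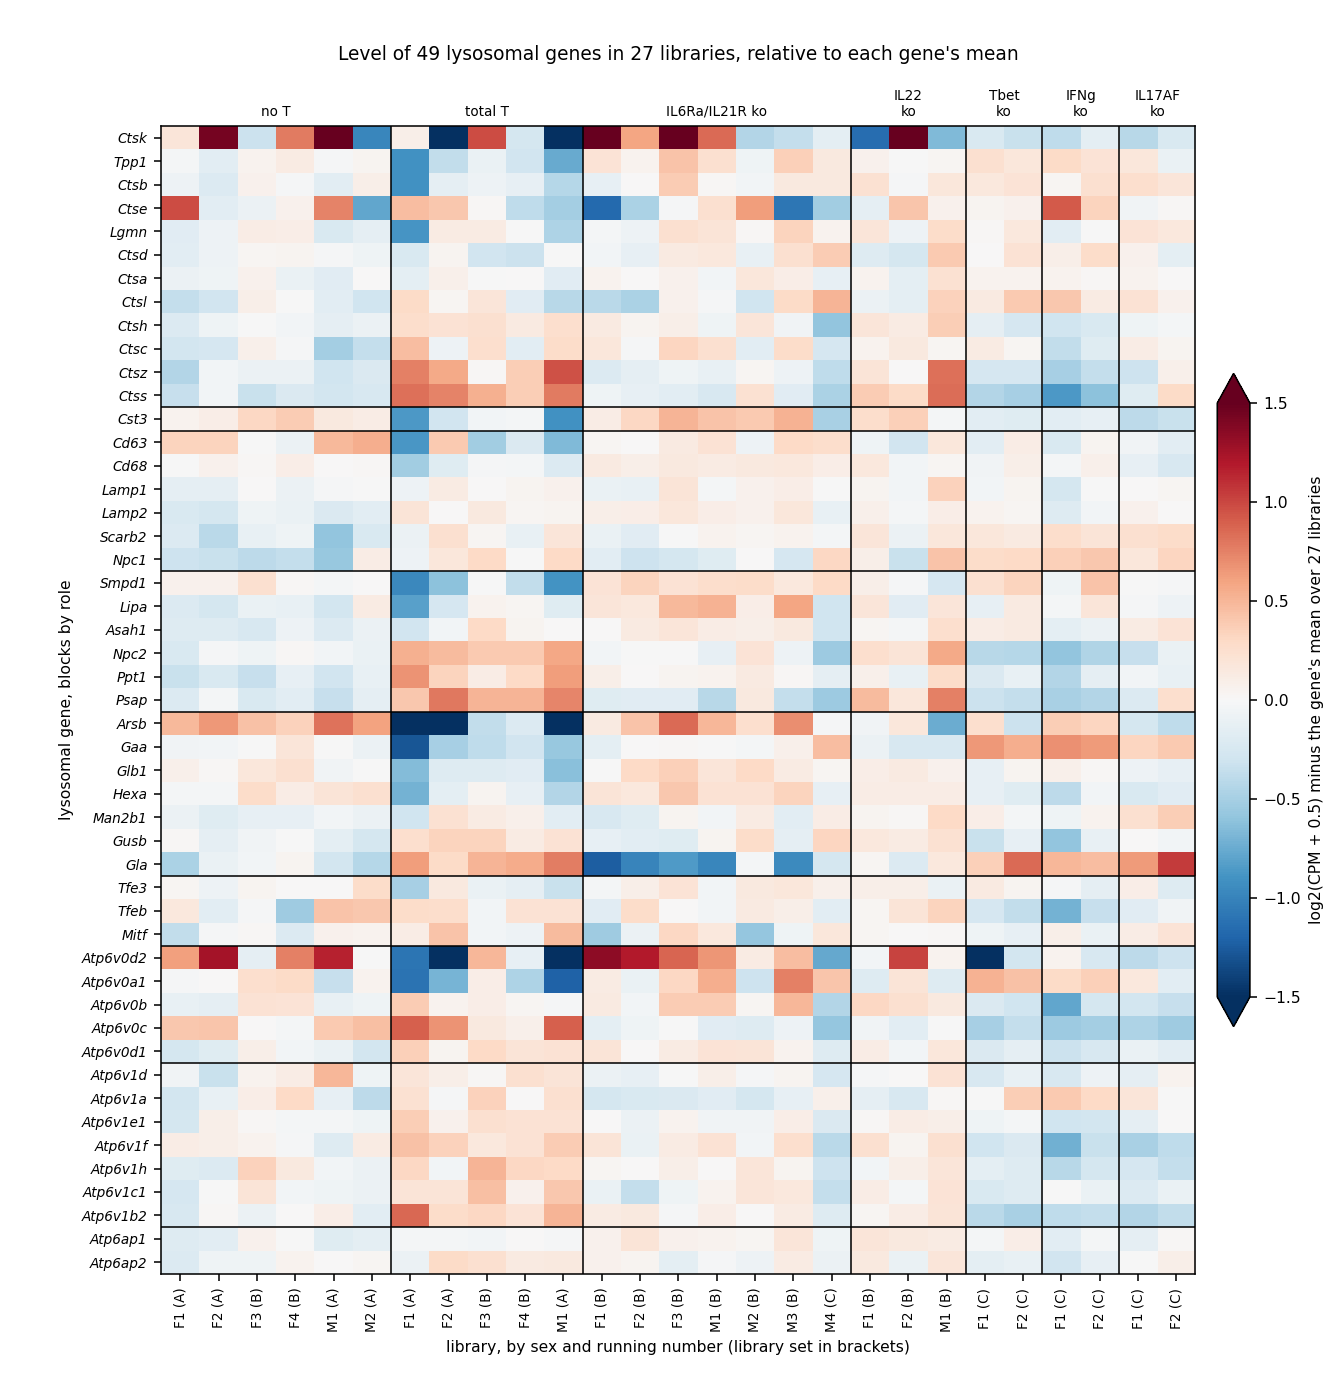
Log2(CPM + 0.5) of the 49 genes in the 27 libraries minus each gene's mean, with genes in blocks by role and the library set in brackets. The total T columns are high for Ctss, Psap and Ppt1 and low for Arsb, Smpd1 and Glb1, and Gaa is high in the set C columns.

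Across all 7 groups, edgeR found a difference in 28 of the 49 genes (57.1%), against 38.4% of all genes. The smallest adjusted p-values were those of Ctss (7.03e-06), Psap (2.16e-05), Gla (2.51e-05), Npc2 (3.15e-05) and Gaa (5.65e-05). Ctsa had the largest p of the 49, with group means of 194 to 210 CPM per kb. Tfe3, Mitf, Lamp1, Ctsd and Lgmn were not called. With the library set as a term, 20 of the 49 genes were called, against 14.5% of all genes.

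Of 95 other lysosomal genes listed, 89 were tested, and with total T cells 25 rose and 9 fell (median log2 fold change 0.10), where 11.7% and 9.39% of all genes did. With IL6Ra/IL21R ko against total T cells, 14 were higher and 23 lower (median -0.09), against 13.1% and 15.1% of all genes. Among the 6 genes of enzyme sorting, 4 rose and 1 fell with total T cells, among 21 membrane proteins and transporters 6 rose and 2 fell, and among 14 genes of mTORC1 and TFEB control 3 rose and 1 fell. Among 18 other glycan and sulfate enzymes 4 rose and 2 fell, among 12 lipid and nucleic acid enzymes 3 rose and 1 fell, among 6 other proteases 2 rose and 2 fell, and of 2 other cystatins 1 rose. Of 10 other pump subunits 2 rose and 0 fell, while 6 had negative log2 fold changes and the median was -0.86.

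Among these other listed lysosomal genes, 6 are named for the smallest p-values in total T against no T. Clcn7, the chloride and proton exchanger of the lysosome, rose from 69.3 ± 13.1 to 223 ± 116 CPM (1.69 ± 0.22, adjusted p = 2.95e-05). Tcirg1, the a3 subunit of the pump, rose from 167 ± 27.2 to 340 ± 87.5 CPM (1.03 ± 0.14, adjusted p = 3.11e-05). Slc15a3, a transporter of peptides and histidine, rose from 184 ± 43 to 402 ± 89.2 CPM (1.13 ± 0.17, adjusted p = 7.66e-05). Atp6v0a2, another a subunit (0.96 ± 0.15), M6pr, the cation-dependent mannose 6-phosphate receptor that sorts enzymes (0.72 ± 0.12), and Galns, a sulfatase of keratan sulfate (1.04 ± 0.18), rose too, with adjusted p-values of 0.000127, 0.000176 and 0.000313. Atp6v0a1 fell, whereas the other a subunits Atp6v0a2 and Tcirg1 rose. In set B alone the 6 log2 fold changes were 1.03, 0.45, 0.50, 0.76, 0.48 and 0.52, in the order named, and none was called. With IL6Ra/IL21R ko against total T cells, the same 6 genes had log2 fold changes of -1.62, -0.95, -1.19, -0.89, -0.78 and -0.88. They were picked for their difference in total T, whose libraries both comparisons share, so the opposite sign is no independent support.

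The genes whose levels ran most like the mean log2 CPM of Ctsb, Ctss, Ctsz and Tpp1 over the 27 libraries were P2rx4 (Pearson r = 0.900), Unc93b1 (0.857), Hebp1 (0.849), Leprot (0.836), Slc11a1 (0.807) and Aif1 (0.798). Those 4 references are the proteases called in IL6Ra/IL21R ko against total T cells. Ctss and Ctsz were lower there and Ctsb and Tpp1 higher, so the mean mixes genes that moved both ways. The libraries share groups, sets and depth, so these correlations are descriptions with no test.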

How the data were processed

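RNA-seq libraries of 75-nt single reads were made without strand information, per the labels' protocols, from macrophages sorted from saline-perfused, digested dura. Per the submitters' processing notes, the tools named are STAR 2.4.0j, featureCounts and DESeq2 1.20.0 with the build GRCm38. The authors deposited 1 table of 27 columns that its name calls normalised. The counts the authors deposited are reads per gene with no scaling, as judged from the values: totals run from 6902602 to 19966749, a 2.89-fold range, and every whole number from 1 to 20 occurs in all 27 columns. Reads of overlapping or antisense genes cannot be told apart, which touches Ctsa, Ctsb, Ctsd, Ctsl, Ctsz, Lamp1, Npc1, Ppt1, Hexa, Glb1, Arsb, Atp6v0b, Atp6v1e1 and Atp6v1h.

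Groups follow the labels. The main test was edgeR 4.0.16 (limma 3.58.1, R 4.3.3): TMM scaling, a quasi-likelihood fit over all 27 libraries with group and sex, genes with a mean normalised count of at least 10 (12661), Benjamini-Hochberg adjustment over all of them, and a gene is called at an adjusted p under 0.05. SE is the log2 fold change divided by the root of F. Levels in CPM use the TMM-scaled totals. Library sets are 3 clusters (average linkage) of the libraries by the log2 levels of 69 ribosomal protein genes, named in order of the share of ribosomal protein counts. They are not a batch given by the labels. Named in full were the 16 members with the smallest p for any difference, the most abundant per role, and those whose call changes with the library set; outside the members, 6 genes with the smallest p and 6 most alike. Alternatives were DESeq2 1.42.0 and its size factors, other filters, no sex term, females only, the library set as a term, sets alone, only the groups compared, and leaving out each library. On simulated counts for total T against no T (12661 genes), the fit called 76% of changes of log2 2 and 56% of those of log2 1. The 2 Tbet ko libraries differed by a chi-square of 11.7 per degree of freedom, where the 52 pairs within groups ranged from 8.97 to 137.9. Their column names carry the same number, and those of IL6Ra/IL21R ko M2 and M4 look like several animals, but no label says whether these are repeats or pools. The members, lists and roles were chosen with earlier results of these data known. Promoter sequences are from RefSeq, GRCm38.p6, and positions from GENCODE on GRCm38.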

Additional observations from a re-analysis of the deposited data

Results flagged for a closer look

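Among 147 sets of 4 to 10 libraries of 1 gene and group, 13 held a library whose gap to its nearest neighbour was large for the range of the group. Chance flags about 1 in 20 such sets. Of the 13, 7 were library M4 of the IL6Ra/IL21R ko group, the only 1 of its group in set C. In M4, Ctsh was 606.5 CPM against 877.6 to 1036 CPM in the other 6, Lamp2 was 776.5 against 878.1 to 942 CPM, and Asah1 was 531.9 against 655.3 to 742.9 CPM. Atp6v0c was 121.1 CPM in M4 against 158.1 to 180.7 CPM, and Atp6v1h was 61.86 against 77.28 to 87.24 CPM. Gaa, at 277.2 CPM against 182.2 to 212.1 CPM, and Atp6v1a, at 273.3 against 215.6 to 238.9 CPM, were high in M4.

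In the no T group, Npc1 was 185.3 CPM in M2 against 115.1 to 137.5 CPM in the others, and Tfe3 was 199.3 CPM in M2 against 156.1 to 169.3 CPM. Smpd1 was 70.02 CPM in F3 against 57.9 to 61.87 CPM, and Gaa was 227.5 CPM in F4 against 188.6 to 200.1 CPM. In the total T group, Tfeb was 49.36 CPM in F3 against 59.06 to 61.92 CPM, and Atp6v0b was 275.4 CPM in F1 against 209.7 to 227.1 CPM.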

How the results depend on the processing

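For total T against no T, the 26 genes called became 15 in females only, 17 in set A, 0 in set B (12 at an unadjusted p under 0.05) and 17 with only the groups compared, and 18 to 28 when 1 library was left out (18 without total T M1). For IL6Ra/IL21R ko against total T, the 25 became 16 with the library set as a term and 6 in set B, and 19 to 26 with 1 library left out. Against no T, the 1 gene became 0 with DESeq2 size factors, the library set as a term, set B or only the groups compared, 3 with the DESeq2 test, 2 with no filter on low counts (Lamp2 not among them) and 0 to 2 with 1 library left out (0 without no T F1, F2, M1 or M2 or IL6Ra/IL21R ko F1, F2, F3, M1 or M3, 2 without M4). Lamp2 was also not called in females only. IL22 ko against total T, with 0 genes, had 6 with DESeq2, 8 with no filter, 2 with a mean count of at least 50 and 0 to 10 with 1 library left out (10 without total T F3, 5 without F4). IL22 ko against no T, with 0, had 2 with DESeq2, 4 with no filter, 1 without the sex term, 2 with the set term, 2 with only the groups compared and 0 to 2 with 1 library left out (1 without no T F2, 2 without IL22 ko F2). IL22 ko against IL6Ra/IL21R ko, with 0, had 4 with DESeq2, 5 with no filter, 2 with the set term, 3 in set B and 0 to 3 with 1 library left out (3 without IL6Ra/IL21R ko M2, 2 without M4, 1 without IL22 ko F2).

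The 19, 25 and 14 genes of Tbet ko, IFNg ko and IL-17AF ko against total T became 0, 0 and 0 with the set term and 6, 8 and 2 with only the groups compared, with leave-one-out ranges of 7 to 21, 13 to 25 and 4 to 16. IL-17AF ko against the mean of the other set C groups, with 0, had 1 with no filter and 0 to 0 with 1 library left out. The overall difference, with 28 genes, held 20 with the set term, 21 in females only and 25 to 33 with 1 library left out. With the set term, log2 fold changes turned to 0.019 for Atp6v1f and 0.23 for Ctsh with Tbet ko, and 0.16 for Ctsh with IFNg ko. Beyond these alternatives' own construction the cause was not tested. With 2 libraries in a group, leaving 1 out assumes that the other varies like the other groups. No paired analysis was possible because the columns could not be matched to the replicate numbers of the labels. The column names carry numbers of their own, some shared between groups, but nothing states that these pair libraries.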

Other observations

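Within the no T and total T groups, some of the 49 genes differed between library sets. Atp6v0c was lower in set B than in set A by a log2 difference of -0.43 in the no T group and -0.71 in the total T group. Arsb (-0.25 and 1.37), Atp6v0d2 (-0.44 and 2.22) and Ctsk (-0.40 and 2.39) had log2 differences of opposite sign in the no T and total T groups, and Cst3 was higher in set B in both (0.24 and 0.65). These are values from 2 to 4 libraries each, with no test.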
